A study of Mus musculus with 75 samples.

Results

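The genes of cholesterol synthesis and sterol control were followed in ribosome-bound RNA from 5 classes of cell of the mouse visual cortex. They were chosen by symbol, and 31 of 34 listed symbols had a row among the 14261 genes of the table. Hmgcs1 and the older symbols Sc4mol and Sc5dl were not analysed here. The 31 genes comprised 7 mevalonate enzymes (Acat2, Mvk, Pmvk, Mvd, Idi1, Fdps, Ggps1), 11 sterol enzymes (Fdft1, Sqle, Lss, Cyp51, Tm7sf2, Msmo1, Nsdhl, Hsd17b7, Ebp, Sc5d, Dhcr7), 5 genes of sterol sensing (Insig1, Insig2, Scap, Srebf1, Srebf2) and 8 of transport and turnover (Stard4, Abca1, Abcg1, Apoe, Nr1h2, Lrp8, Vldlr, Cyp46a1). All 31 passed the filter on low values in each fit.

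Every mouse was an 8-week C57BL/6 animal heterozygous for 1 Cre driver that also carried the RiboTag allele, which puts an HA epitope on the ribosomal protein Rpl22 in cells with Cre recombinase. The Emx driver labels excitatory cells, the Gad2 driver inhibitory neurons as a whole, and PV, SST and VIP each label 1 inhibitory class. For each driver, mice kept in the dark were given 1 h, 3 h or 7.5 h of light, other mice lived in standard housing, and the dark group had no light. Each of the 25 groups held 3 libraries, each a pool of 3 mice, except SST standard and SST dark with 2 libraries each, which leaves 73 libraries. The tag follows the lineage in which Cre was active, and the Emx1 lineage is known to include cortical astrocytes and oligodendrocytes as well as excitatory neurons. In such bulk RNA, fewer cells of a type and less RNA per cell cannot be told apart. The markers matched the labels: all 4 PV, all 4 SST and all 5 VIP markers were higher in their own line than in the other two inhibitory classes, and all 10 inhibitory markers were lower in Emx than in Gad2.

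Cells build cholesterol from acetyl-CoA through mevalonate, isoprenoid diphosphates, squalene and lanosterol. When sterols are scarce, Scap carries the transcription factors Srebf2 and Srebf1 out of the endoplasmic reticulum and they switch on most enzymes of the pathway, whereas Insig1 and Insig2 hold them back when sterols are plentiful. In the adult brain, astrocytes make much of the cholesterol and release it on particles that hold Apoe, receptors such as Lrp8 and Vldlr bind these particles on neurons, and neuronal Cyp46a1 hydroxylates surplus cholesterol for removal.

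The promoters below belong to the genes on which the results turn, namely Cyp51, Mvk and Lrp8 for light and Srebf2 for the differences between Cre lines. Each line gives the 250 bases before a RefSeq start site (GRCm38.p6, for Lrp8 the most upstream of its 3 start sites), 5′ to 3′ on the strand of the gene. Capitals mark CCAAT on either strand, the box bound by NF-Y, and ATCACNNCA on either strand, a short form of the sterol response element to which Srebf proteins bind.
Cyp51, chr5:4104698-4104947, minus strand: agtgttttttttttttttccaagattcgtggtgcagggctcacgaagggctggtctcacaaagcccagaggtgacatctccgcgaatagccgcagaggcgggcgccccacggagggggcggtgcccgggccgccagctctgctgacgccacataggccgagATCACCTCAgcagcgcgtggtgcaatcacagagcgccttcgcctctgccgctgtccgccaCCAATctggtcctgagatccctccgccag
Mvk, chr5:114444019-114444268, plus strand: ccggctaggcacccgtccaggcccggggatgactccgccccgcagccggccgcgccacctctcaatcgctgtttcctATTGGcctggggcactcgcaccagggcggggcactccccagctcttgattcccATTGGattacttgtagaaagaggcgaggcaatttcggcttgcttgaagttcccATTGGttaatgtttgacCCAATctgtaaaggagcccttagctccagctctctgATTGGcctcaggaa
Lrp8, chr4:107802635-107802884, plus strand: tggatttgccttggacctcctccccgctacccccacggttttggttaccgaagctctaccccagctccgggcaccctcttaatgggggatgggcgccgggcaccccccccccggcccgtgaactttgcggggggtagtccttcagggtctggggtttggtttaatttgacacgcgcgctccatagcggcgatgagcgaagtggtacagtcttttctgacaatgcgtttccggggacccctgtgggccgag
Srebf2, chr15:82147019-82147268, plus strand: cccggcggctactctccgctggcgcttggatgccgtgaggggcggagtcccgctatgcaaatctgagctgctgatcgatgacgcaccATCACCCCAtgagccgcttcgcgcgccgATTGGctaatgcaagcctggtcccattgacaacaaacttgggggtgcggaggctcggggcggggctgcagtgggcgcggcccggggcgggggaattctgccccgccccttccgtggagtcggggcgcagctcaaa
In these windows Mvk held 5 CCAAT boxes, Cyp51 and Srebf2 held 1 CCAAT box and 1 short sterol element each, and Lrp8 held neither. Promoters were found for 26 of the 31 genes. CCAAT stood on either strand in 20 of these 26 genes, against 40.2% of the 10623 genes of the table with a promoter. GGGCGG, the GC box, stood on either strand in 21 of 26, against 63.4% of genes. The 26 genes have 39 promoters and the 10623 genes 13642, and per promoter the shares were 53.8% of members against 34.8% of all for CCAAT, and 61.5% against 56.3% for GGGCGG. The longer sterol element TCACNCCAC was in 0 of 26, against 1.25% of genes, and ATCACNNCA, chosen after the longer one gave no match, was in 3 (Cyp51, Msmo1 and Srebf2), against 1.9% (7.69% of member promoters, against 1.58% of all). These are matches of letters and show no binding.

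Depth was 7.25 to 52.2 M reads a library (median 24.7 M), and averaged 14.6 ± 5.25 M at 7.5 h of light (SD, n = 15), 16.2 ± 6.48 M in standard housing (n = 14) and 33.2 ± 9.17 M in the dark (n = 14). Values are read signals scaled per library and not divided by gene length, so levels are compared between libraries and not between genes. VIP standard replicate 3 stood apart, with 815 genes at 0. Libraries of 1 replicate number shared a profile, and the members carried it. Srebf2 and Cyp46a1 were each lowest in replicate 3 in 25 of 25 groups. In Emx, Srebf2 had signals of 5048, 4612 and 3226 at 7.5 h of light, against 3774, 3606 and 2370.1 in the dark (replicates 1, 2 and 3). Every replicate was higher at 7.5 h than its dark partner, while the groups overlapped. Tests are therefore given without and with the replicate number as a block, both from limma on log2(signal + 1) at a Benjamini-Hochberg false discovery rate (FDR) of 5% over all genes of a contrast.

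PV neurons held the least RNA for most of the pathway, Gad2 and SST lay above them, and Emx and VIP held the most. Srebf2, the main activator of cholesterol genes, ranged from 2370.1 through 3823 to 5048 in Emx libraries (lowest, median and highest), from 1323 through 1960.3 to 2579 in Gad2, from 549.9 through 869 to 1085 in PV, from 1582 through 2375 to 3055 in SST and from 3280.0 through 5638 to 6546 in VIP. The PV range lay below those of all other lines, and VIP lay above PV, Gad2 and SST without overlap. Emx and VIP overlapped, as did Gad2 and SST.

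**Figure D1:**
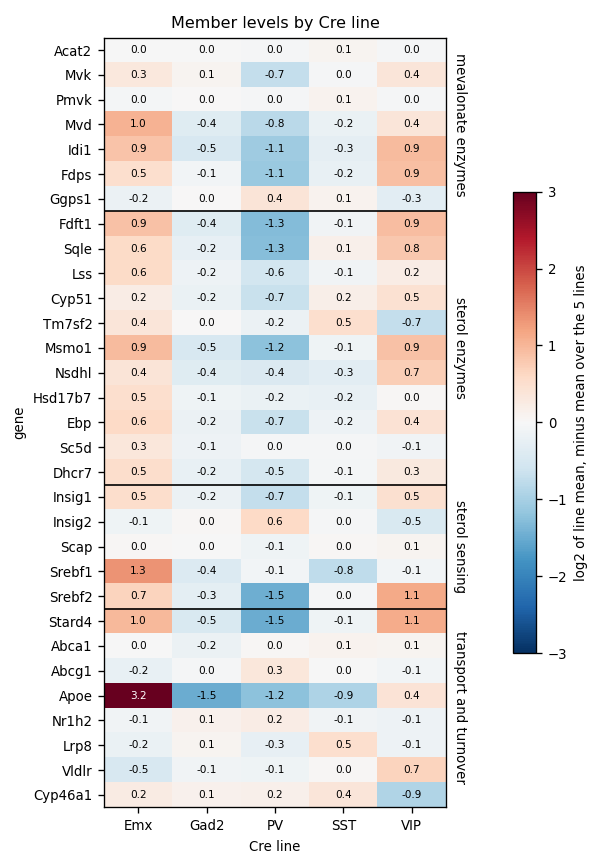
Log2 of the mean signal of each gene in each Cre line, minus the mean over the 5 lines (colour and printed value), with Cre lines across and the 31 genes down by role. Srebf2 and Stard4 are lowest in PV and highest in VIP, whereas Insig2, Ggps1 and Abcg1 are highest in PV.

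Set against the mean of SST and VIP, 7 of 31 members were lower in PV and 0 higher, at 5% FDR and a log2 difference of 1 or more in size. Over all 14184 genes tested, 12.5% were lower and 6.01% higher by this rule, against 22.6% of members lower. The median log2 difference was -0.60 over the members and -0.030 over all genes. By the FDR alone 19 of 31 members were lower in PV and 6 higher, against 4936 and 4289 of all 14184 genes. Between lines, the fit with the block compared the levels of replicate 1 alone, not the average over replicates. There 20 members were lower and 5 higher, counts that were not set against all genes. The 7 genes were Idi1, Fdps, Fdft1, Sqle, Msmo1, Srebf2 and Stard4. By the FDR alone, most markers of other cells were lower in PV as well. By the same rule of FDR and size, 7 of 9 markers of endothelial cells and pericytes, 4 of 10 of microglia, 3 of 10 of astrocytes, 2 of 6 of oligodendrocyte precursors and 1 of 10 of excitatory neurons were lower, and by the FDR alone 9, 9, 8, 6 and 9 in that order. Of 10 oligodendrocyte markers, 0 were lower and 1 higher by FDR and size, and 9 lower and 1 higher by the FDR alone. By the FDR alone 1 astrocyte and 1 excitatory marker were also higher. Summed endothelial and pericyte markers were 175 to 393 in PV, 233 to 460 in SST and 673 to 1392 in VIP, and summed microglial markers 882 to 1322 in PV, 1025 to 1670 in SST and 2040 to 3097 in VIP. The part of these cells in the PV levels was not tested.

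Among the mevalonate enzymes, Idi1, the isomerase of the isoprenoid building blocks, averaged 199.6 in PV, against 572 over SST and VIP (log2 difference -1.38, SE 0.087, limma adjusted p = 1.25e-20). Fdps, which makes farnesyl diphosphate, averaged 94.1 in PV, against 275 (log2 difference -1.43, SE 0.20, limma adjusted p = 1.68e-08). Acat2, which joins acetyl-CoA units, and Pmvk, phosphomevalonate kinase, barely varied: the highest line mean was 1.09 times the lowest for Acat2 and 1.11 times for Pmvk. Ggps1, which makes geranylgeranyl diphosphate for protein prenylation, ran the other way, with 2107 ± 377 in PV, 1729 ± 259 in SST and 1300.3 ± 172 in VIP (mean ± SD, n = 15, 13 and 15).

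Among the sterol enzymes, Fdft1 commits farnesyl diphosphate to squalene and Sqle oxidises squalene. Fdft1 signals ran from 547 through 666 to 703 in PV, from 1197 through 1416 to 2047 in SST and from 1784 through 3008 to 4105 in VIP. PV overlapped neither class (log2 difference -1.70, SE 0.049, limma adjusted p = 4.62e-36). Sqle ran from 361 through 513 to 578 in PV, from 1077 through 1277 to 1572 in SST and from 1526 through 2071 to 2433 in VIP, and PV again lay below both (log2 difference -1.74, SE 0.053, limma adjusted p = 4.19e-35). Msmo1, a sterol methyl oxidase, averaged 306 in PV, against 997 over SST and VIP (log2 difference -1.62). Cyp51, the lanosterol demethylase, missed the size rule at -0.97 over all replicates, as did Ebp, a sterol isomerase, at -0.86. At the level of replicate 1 alone, which the fit with the block compares, they stood at -1.02 and -1.13.

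Stard4, a cholesterol carrier inside the cell, ran from 35.8 through 57.6 to 163 in PV, from 110.5 through 163 to 426 in SST and from 220.1 through 424 to 641 in VIP (log2 difference -2.08, SE 0.14, limma adjusted p = 2.89e-19). The highest PV library overlapped the SST range but not that of VIP. Insig2 averaged 1997 ± 413 in PV, 1273 ± 312 in SST and 957 ± 193 in VIP, opposite in order to Insig1, which averaged 700.4 ± 76.3 in PV, 1064 ± 239.6 in SST and 1614 ± 382 in VIP. Abcg1, a sterol exporter, averaged 2664 ± 311 in PV, 2104 ± 218 in SST and 1995 ± 402 in VIP.

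VIP neurons stood at the other end. Set against the mean of PV and SST, 9 of 31 members were higher in VIP and 1 lower, against 12.7% and 6.55% of all genes. The 9 were Idi1, Fdps, Fdft1, Sqle, Msmo1, Nsdhl, Srebf2, Stard4 and Apoe, with log2 differences of 1.10 (Nsdhl, an enzyme of sterol demethylation) to 1.94 (Stard4). The lower gene was Cyp46a1, with 1413 ± 303 in VIP, 2934 ± 549 in PV and 3387 ± 634 in SST (log2 difference -1.17, SE 0.095, limma adjusted p = 2.92e-16). Vldlr, a receptor for lipoproteins and reelin, averaged 4539.7 ± 833 in VIP, 2625 ± 645 in PV and 2919 ± 504 in SST and stayed under the size rule at 0.71. SST set against the mean of PV and VIP gave 0 limma calls in either direction, where 5.04% of genes were higher and 3.69% lower. By the FDR alone 5 of 31 members were higher in SST and 3 lower, against 2797 and 2595 of all 14184 genes. At the level of replicate 1 alone, which the fit with the block compares, the member counts were 5 and 4, not set against all genes. There Cyp51 was not called (limma adjusted p = 0.0702), while Acat2 (0.0201, higher) and Vldlr (0.00085, lower) were.

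Markers of other cells moved with the VIP difference. Of 10 astrocyte markers, 9 were higher in VIP than in PV and SST by the same rule, and their summed signal was 39396 to 70122 in VIP, 14931 to 31607 in PV and 15063 to 48894 in SST. Of 10 excitatory markers, 7 were higher, with sums of 42316 to 72167 in VIP, 14533 to 29916 in PV and 15752 to 34690 in SST. By the same rule 6 of 6 markers of oligodendrocyte precursors, 8 of 9 of endothelial cells and pericytes, 7 of 10 of microglia and 3 of 10 of oligodendrocytes were also higher in VIP. Of the 20 astrocyte and excitatory markers, 0 were at 0 throughout in VIP. The part of all these cells in the member levels was not tested. SST light 1 h replicate 3 and Gad2 light 1 h replicate 3 held the highest astrocyte sums of their lines, at 48894 and 65992.

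Emx set against Gad2 gave 7 higher members and 0 lower ones, against 15.2% and 10.1% of all genes. The 7 were Mvd, Idi1, Fdft1, Msmo1, Srebf1, Stard4 and Apoe. Apoe, the main lipid carrier protein of the brain, ran from 11023 through 18446 to 23087 in Emx, against 424 through 599 to 1054 in Gad2, with no overlap (log2 difference 4.70, SE 0.20, limma adjusted p = 7.19e-28). Srebf1, which mainly drives fatty acid genes, averaged 565 ± 100.7 in Emx, against 167 ± 47.1 in Gad2 (log2 difference 1.78, SE 0.14, limma adjusted p = 1.36e-16). The remaining 5 had log2 differences of 1.24 to 1.44. By the FDR alone 20 of 31 members were higher in Emx and 5 lower, against 4640 and 4639 of all 14184 genes. All 11 sterol enzymes were higher in Emx by this rule, with a median log2 difference of 0.74, against -0.0084 over all genes. At the level of replicate 1 alone, which the fit with the block compares, 10 were. The exception was Tm7sf2 (limma adjusted p = 0.143, against 0.0245 over all replicates).

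Glial markers separated these lines too. All 10 astrocyte, all 10 oligodendrocyte and all 6 oligodendrocyte precursor markers were higher in Emx than in Gad2 and all 10 microglial markers were lower, with summed astrocyte signals of 162761 to 220315 in Emx, against 13706 to 65992 in Gad2, and oligodendrocyte sums of 56809 to 79618 in Emx, against 4890 to 6834 in Gad2. The part of these cells in the member levels was not tested.

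**Figure D2:**
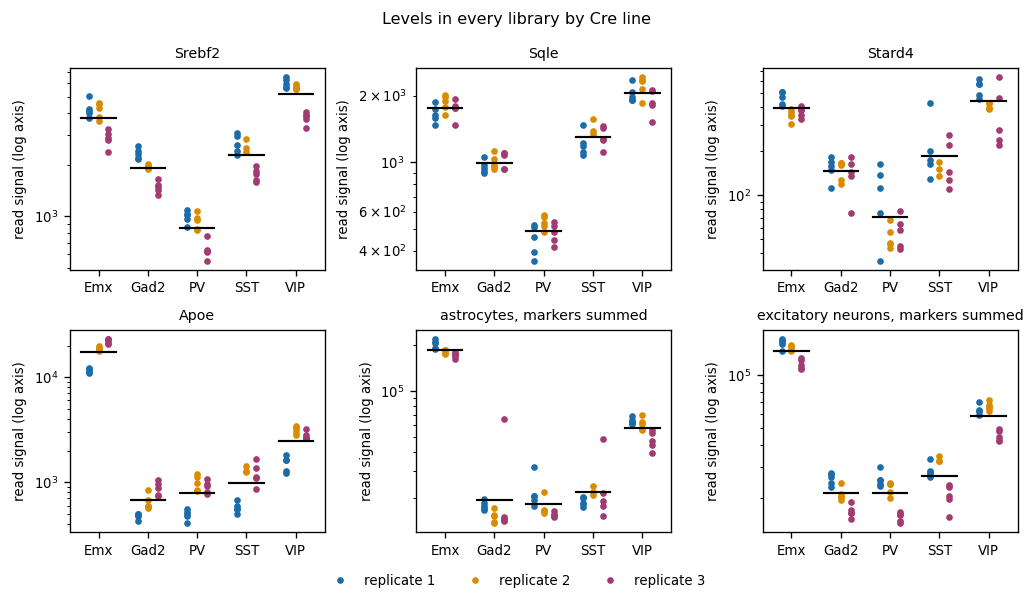
Read signal (log axis) of Srebf2, Sqle, Stard4 and Apoe, and the summed signal of 10 astrocyte and 10 excitatory markers, in each library by Cre line, with points coloured by replicate number and bars at the line mean. Sqle lies lowest in PV, Apoe lies highest in Emx, and Srebf2 of replicate 3 lies below the other replicates.

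Light moved few members, by modest amounts. Averaged over the 5 lines and set against dark, Cyp51 rose at 1 h and 7.5 h, Lrp8 rose at 7.5 h and Mvk fell at 7.5 h, without the block. At 1 h, 1 of 31 members was higher and 0 were lower, against 1.6% and 0.409% of all genes. At 3 h no member passed limma's test, where 3.69% and 2.09% of genes did, and the nearest were Lrp8 (adjusted p = 0.0502) and Insig1 (0.0538). At 7.5 h, 2 were higher and 1 lower, against 7.99% and 7.18% of all genes, so members were called no more often than genes at large. With the block, members higher and lower numbered 1 and 0 at 1 h (3.98% and 1.93% of genes), 2 and 2 at 3 h (12.1% and 9.14%) and 4 and 6 at 7.5 h (18.8% and 18.3%). Light and dark libraries did not overlap in 8.92%, 14.8% and 18.8% of all genes in Emx at 1 h, 3 h and 7.5 h. These shares were 6.62%, 8.48% and 11% in Gad2, and 4.29%, 6.08% and 10% in PV. They were 13.3%, 19% and 21.5% in SST, and 7.31%, 11.3% and 12.1% in VIP.

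Lrp8, a receptor for Apoe and reelin, had 3481, 2432 and 2529 in Emx at 7.5 h, against 2012, 1902 and 1705 in the dark, with no overlap. This was the 1 member call of the 20 within-line contrasts made without the block (mean 2814 ± 579.8 against 1873 ± 155, SD, n = 3 each, log2 difference 0.57, SE 0.15, limma adjusted p = 0.0458), where 2.53% of genes were higher and 1.28% lower. In the other 19 contrasts 0% to 0.978% of genes were higher and 0% to 0.134% lower. The Lrp8 call was lost in 5 of 6 such fits that left out 1 library. With the block the adjusted p was 1.82e-05, and the call held with each library left out in turn. In SST Lrp8 had 4792, 3853 and 4432 at 7.5 h, against 3254 and 2752 in the dark, again with no overlap (0.61, limma adjusted p = 1.31e-06 with the block and 0.216 without).

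In Gad2 Lrp8 had 3061, 2810.1 and 2873 at 7.5 h, against 2503, 2187 and 2395 in the dark. The groups did not overlap (0.30, limma adjusted p = 0.000883 with the block and 0.367 without). In PV it had 2636, 1826 and 2450.2 at 7.5 h, against 1997, 1513 and 2004 in the dark. The groups overlapped, and each replicate was above its dark partner (0.32, limma adjusted p = 0.00762 with the block and 0.96 without). In VIP the values were 2656, 2086 and 2694 at 7.5 h, against 2443, 1758 and 2000.0 in the dark. They overlapped, with no call under either fit (0.27, limma adjusted p = 0.444 with the block). At 3 h Lrp8 rose with the block in Gad2 (0.25) and SST (0.43), and at 1 h neither fit called it in any of the 5 lines. Over the 5 lines Lrp8 was higher at 7.5 h (0.40, SE 0.072, limma adjusted p = 3.34e-05, 5 of 5 lines).

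Over light and standard housing together, Cyp51 was the member called most often, with 8 calls with the block in 3 lines, all higher. In Emx it had 1864, 1965 and 2368 at 1 h, 1797, 1619 and 1790.3 at 3 h and 1867, 1290.1 and 1585 at 7.5 h, against 1256, 1117 and 1347 in the dark. All libraries at 1 h and 3 h lay above all dark libraries, and those at 7.5 h overlapped them. The log2 difference from dark was 0.73 at 1 h, 0.49 at 3 h and 0.34 at 7.5 h. Limma's adjusted p was 0.000179, 0.00396 and 0.0232 with the block, and 0.127, 0.342 and 0.393 without. The 1 h and 3 h calls with the block held with each library left out, and the 7.5 h call held in 2 of 6 such fits.

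In SST Cyp51 had 1480.3, 1220.2 and 1659 at 1 h, 1669, 1594 and 1685 at 3 h and 1819, 1625 and 2418 at 7.5 h, against 1093 and 1317 in the dark. The 3 h and 7.5 h libraries all lay above the dark ones. With the block the log2 difference from dark was 0.55 at 3 h and 0.77 at 7.5 h. Limma's adjusted p was 0.000677 and 3.13e-06 with the block, and 0.848 and 0.162 without. SST dark holds no replicate 2, which the SST light groups do, so SST differences without the block also carry that number. In VIP Cyp51 had 2115, 2374 and 2444 at 1 h and 1329, 1565 and 1663 at 3 h, against 1852, 1746 and 1833 in the dark. These libraries lay above dark at 1 h and below it at 3 h without overlap, and neither fit called them. Over the 5 lines Cyp51 was higher at 1 h (0.35, SE 0.084, limma adjusted p = 0.00842) and at 7.5 h (0.32, SE 0.084, limma adjusted p = 0.00587), in 5 of 5 lines at both times. At 1 h it was not called without all libraries of replicate 1 (limma adjusted p = 0.143) or of replicate 2 (0.203), and at 7.5 h not without replicate 1 (0.129).

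**Figure D3:**
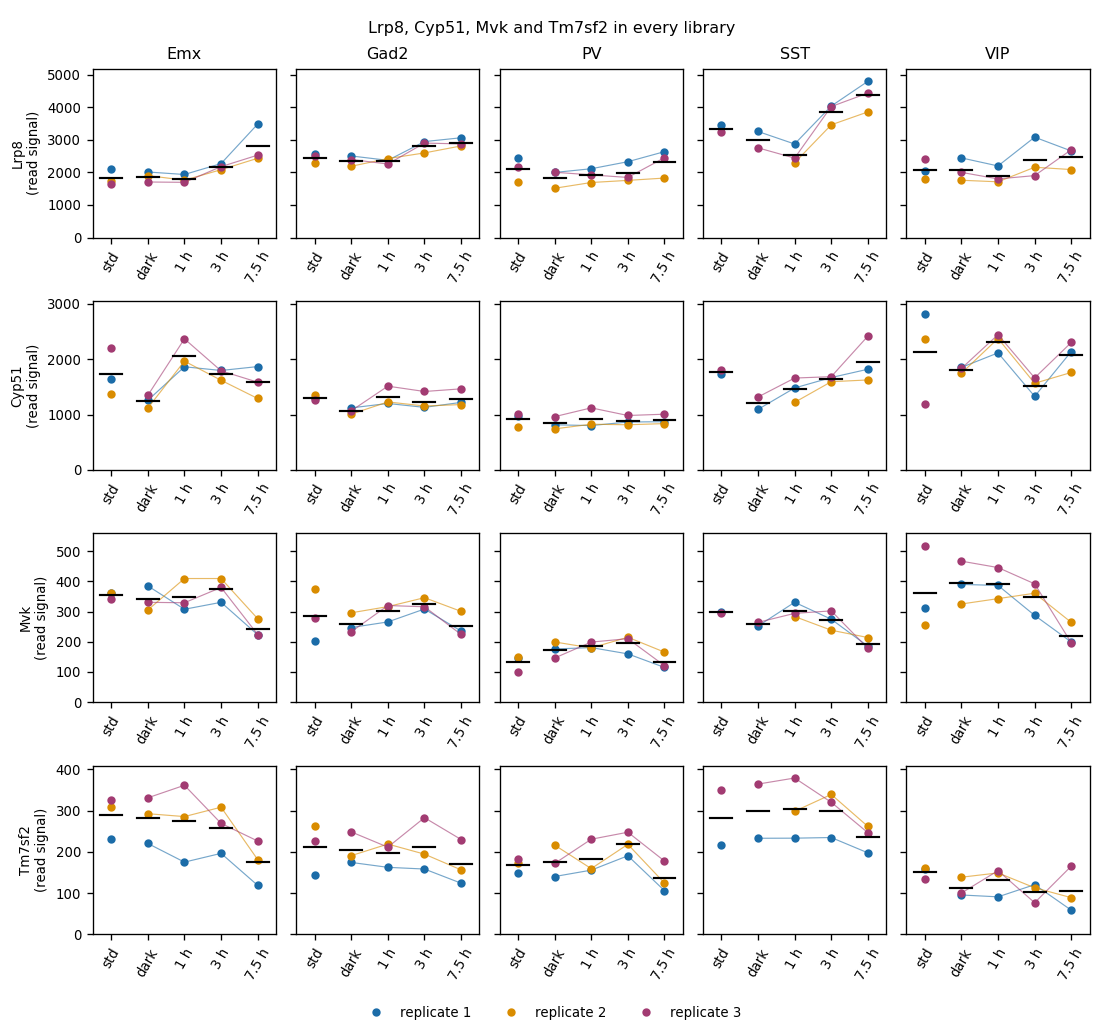
Read signal of Lrp8, Cyp51, Mvk and Tm7sf2 in each library, with 1 column of panels per Cre line, standard housing (std), dark and 3 light times along each axis, points coloured by replicate number, thin lines joining libraries of 1 number from dark through the light times and bars at group means. Group means of Lrp8 at 7.5 h lie above dark in each line, and Mvk at 7.5 h lies below dark in Emx, SST and VIP without overlap.

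Mvk, mevalonate kinase, had 223, 276 and 224 in Emx at 7.5 h, against 385, 305 and 331 in the dark. In VIP it had 199, 264 and 197 at 7.5 h, against 390.2, 325 and 467 in the dark. In SST it had 185, 214 and 178 at 7.5 h, against 252 and 264 in the dark. In these 3 lines the groups did not overlap, while in Gad2 and PV they did. The same lack of overlap was seen in 18.8% of all genes in Emx, 12.1% in VIP and 21.5% in SST. Within a line, Mvk fell in Emx with the block alone (-0.50, limma adjusted p = 0.00811 with the block and 0.117 without), and in VIP the log2 difference of -0.84 was not called (limma adjusted p = 0.0965 with the block). Over the 5 lines Mvk was lower at 7.5 h (-0.44, SE 0.091, limma adjusted p = 0.000375, 5 of 5 lines). This was not called without replicate 1 (limma adjusted p = 0.0598).

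In Emx with the block, 3 members rose at 1 h and 0 fell (2.19% and 0.648% of all genes), 7 rose and 1 fell at 3 h (7.34% and 4.87%), and 5 rose and 4 fell at 7.5 h (12.9% and 13%). The share of members rising was 22.6% at 3 h and 16.1% at 7.5 h. Beside Cyp51, Idi1 and Msmo1 rose at 1 h, calls that held in 1 of 6 and 4 of 6 fits that left out 1 library. At 3 h Pmvk, Mvd and Idi1 of the mevalonate arm, Fdft1, Cyp51 and Msmo1 of the sterol arm and Srebf2 rose, and Abcg1 fell. At 7.5 h Pmvk, Fdft1, Cyp51, Srebf2 and Lrp8 rose, and Mvk, Tm7sf2, Dhcr7 and Abcg1 fell. Of the 7 rises at 3 h, 4 (Pmvk, Fdft1, Cyp51 and Msmo1) held with each library left out, while Mvd held in 5 of 6 such fits, Srebf2 in 2 of 6 and Idi1 in 1 of 6. At 7.5 h Fdft1, Srebf2 and Lrp8 held throughout, Mvk held in 5 of 6 fits and Pmvk in 2 of 6. The Abcg1 falls held in 3 of 6 at 3 h and 2 of 6 at 7.5 h. Without the block limma called no member at 1 h or 3 h in Emx, and 2 at 1 h and 4 at 3 h were higher at an unadjusted p under 0.05. The share of all genes at that unadjusted threshold is not given here, so these counts show no excess by themselves.

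Fdft1 in Emx had 3129, 3244 and 3510.0 at 3 h, against 2408, 2484 and 2709 in the dark. The groups did not overlap (mean 3294 ± 195 against 2533 ± 156, SD, n = 3 each, log2 difference 0.38, limma adjusted p = 0.000418 with the block and 0.128 without). At 7.5 h it had 3215, 3001 and 3253, also without overlap (0.32, limma adjusted p = 0.00109 with the block and 0.121 without). Pmvk had 957, 1297 and 1509 at 3 h, against 655, 853 and 1140.2 in the dark. Its groups overlapped, while each replicate was above its dark partner (0.52, limma adjusted p = 0.000756 with the block and 0.477 without). Msmo1 had 1264, 1391 and 2103 at 3 h, against 992, 1019 and 1445 in the dark, with the same overlap and the same order within replicates (0.45, limma adjusted p = 0.00158 with the block and 0.711 without). Mvd, which decarboxylates mevalonate diphosphate, was called at 3 h (0.51, limma adjusted p = 0.00561 with the block and 0.722 without), and Srebf2 at 7.5 h (0.41, limma adjusted p = 8.81e-05 with the block and 0.466 without).

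Some other sterol enzymes moved the other way in the same Emx libraries. Tm7sf2, a sterol reductase, had 119, 181 and 226 at 7.5 h, against 220.2, 292 and 331 in the dark. Each replicate was lower than its dark partner, and the groups overlapped (-0.71, limma adjusted p = 0.000773 with the block and 0.237 without). Dhcr7, a reductase at the end of the pathway, had 652, 737 and 586 at 7.5 h, against 929, 935 and 764 in the dark, with no overlap (-0.41, limma adjusted p = 0.0023 with the block and 0.227 without). Both falls held with the block and each library left out. With the block, 4 of 10 oligodendrocyte markers fell in Emx at 7.5 h and 0 rose, 2 of 10 astrocyte markers rose and 1 fell, and 2 of 5 VIP markers rose. Summed oligodendrocyte markers were 60841 to 69137 at 7.5 h, against 61631 to 74674 in the dark, and summed astrocyte markers 180258 to 220315 against 162761 to 206754. Summed VIP markers in Emx were 487 to 568 at 1 h, 489 to 1462 at 3 h and 666 to 1185 at 7.5 h, all above the 344 to 383 of the dark libraries. Summed inhibitory markers were 5493 to 5787 at 3 h, against 4058 to 5203 in the dark, and summed SST markers were 562 to 862 at 1 h and 697 to 830 at 3 h, against 460 to 546 in the dark, without overlap. Summed oligodendrocyte markers at 1 h were 76165 to 79618, also above dark. The part of these cells in the member changes was not tested.

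In the other lines the block called fewer members, and a smaller share of all genes, at each light time. Whether the number of members moved differed between lines was not tested. In Gad2 with the block, no member was called at 1 h (1.15% and 0.141% of genes higher and lower), 1 rose and 1 fell at 3 h (2.38% and 0.738%), and 2 rose and 1 fell at 7.5 h (5.38% and 2.86%). The falls were Apoe at 3 h and Srebf1 at 7.5 h, and Cyp51 rose at 7.5 h beside Lrp8. Srebf1 had 191, 126 and 122 at 7.5 h, against 235, 283 and 163 in the dark, and the groups overlapped (-0.62, limma adjusted p = 0.029 with the block and 0.697 without). It was lost in 3 of 6 fits that left out 1 library, Apoe at 3 h in 4 of 6, Cyp51 at 7.5 h in 5 of 6 and Lrp8 at 3 h in 3 of 6. Summed microglial markers were 1734 to 3820 at 3 h, against 5541 to 6783 in the dark, without overlap, and their part was not tested.

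In PV with the block, no member was called at 1 h (0.514% and 0.0282%) or 3 h (0.866% and 0.113%), and 1 rose and 1 fell at 7.5 h (5.29% and 2.61%), Lrp8 and Lss, the lanosterol synthase. Lss had 130.0, 136 and 63.9 at 7.5 h, against 208, 180.2 and 168 in the dark, with no overlap (-0.82, limma adjusted p = 0.0158 with the block and 0.449 without). The Lss call was lost in 3 of 6 fits that left out 1 library and the Lrp8 call in 2 of 6. Summed SST markers in PV were 2273 to 3168 at 7.5 h, against 1507 to 1597 in the dark, without overlap, and their part was not tested.

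In SST with the block, no member was called at 1 h (1.19% and 0.183%), 2 rose and 1 fell at 3 h (4.05% and 1.39%), and 4 rose and 1 fell at 7.5 h (10% and 6.99%). Beside Cyp51 and Lrp8, Srebf2 and Sqle rose at 7.5 h, and Acat2 fell. Srebf2 had 3055, 2832 and 1956 at 7.5 h, against 2267 and 1622 in the dark, and the groups overlapped (0.35, limma adjusted p = 0.00743 with the block and 0.729 without). Idi1 had 223, 264 and 256 at 3 h, against 304 and 455 in the dark, without overlap (-0.58, limma adjusted p = 0.0191 with the block and 0.729 without), against a rise in Emx at that time, and both calls were lost in most fits that left out 1 library (3 of 5 in SST and 5 of 6 in Emx). Sqle and Acat2 at 7.5 h were each lost in 4 of 5 such fits, and Srebf2 in 1 of 5. Summed inhibitory markers in SST were 154825 to 163431 at 3 h and 157099 to 190148 at 7.5 h, against 130785 to 149121 in the dark, without overlap. Summed SST markers were 126635 to 146176 at 3 h and 120922 to 151743 at 7.5 h, against 104524 to 113327 in the dark, without overlap too. Summed endothelial and pericyte markers were 233 to 351 at 3 h, against 417 to 429 in the dark, also without overlap. The part of these cells was not tested.

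In VIP with the block, no member was called at 1 h (0.571% and 0.00705%) or 7.5 h (1.38% and 0.233%), and 1 fell at 3 h and 0 rose (0.345% and 1.85% of genes). This was Insig1, with 1401, 1430.1 and 870.0 at 3 h, against 2195, 2003 and 1730.2 in the dark. The groups did not overlap (-0.71, limma adjusted p = 0.0137 with the block and 0.579 without). It was not called without VIP dark replicate 1, VIP dark replicate 3 or VIP light 3 h replicate 3. Summed inhibitory markers in VIP were 129082 to 147569 at 3 h, against 114071 to 126202 in the dark, and summed endothelial and pericyte markers 673 to 898 at 3 h, against 934 to 1204 in the dark, both without overlap, and their part was not tested.

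**Figure D4:**
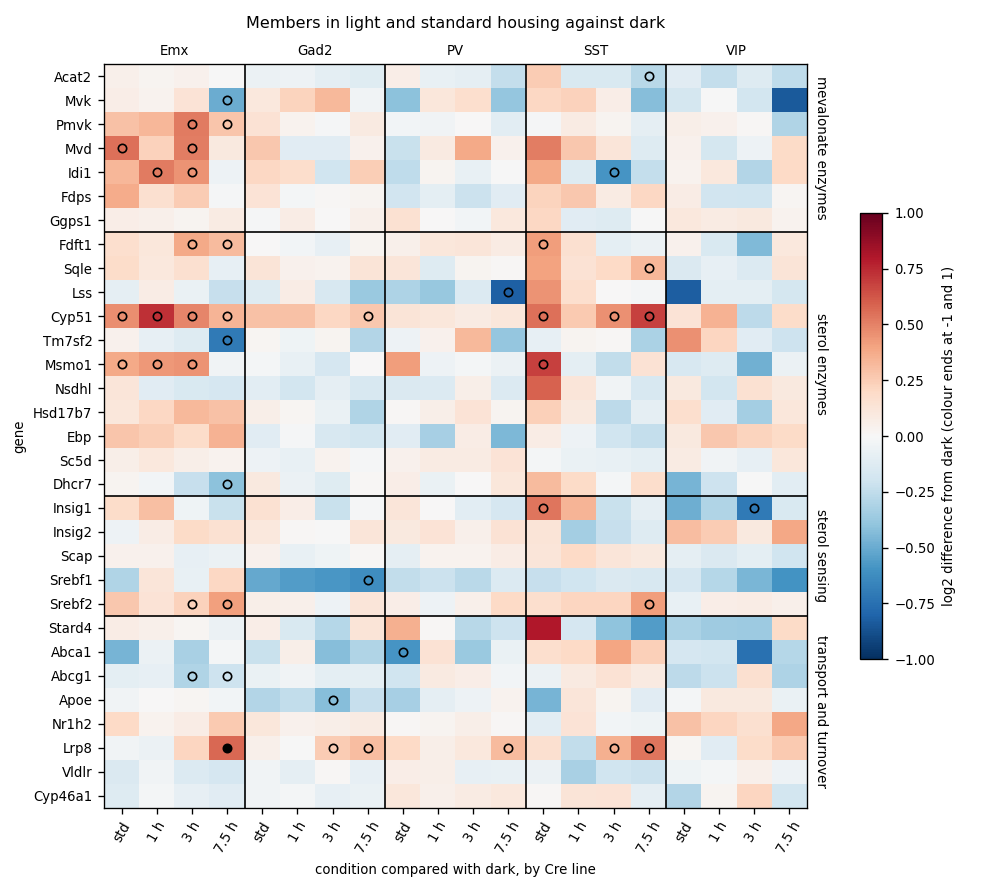
Log2 difference from dark for each gene (rows, by role) in standard housing (std) and at 3 light times in each Cre line (columns), red above dark and blue below. The filled circle marks the call made without the replicate block (Lrp8 in Emx at 7.5 h), and open circles mark calls made with the block alone, which lie mostly in Emx and SST.

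In all, the block gave 44 within-line calls (32 higher, 12 lower) in 19 of the 31 genes. Of these calls 15 held with each library left out in turn, 13 higher and 2 lower, in 8 genes. Shares of all genes stand beside each contrast and were not pooled, so these totals alone do not show an excess among members. The counts of calls that held were not set against all genes. The other 12 genes (Fdps, Ggps1, Nsdhl, Hsd17b7, Ebp, Sc5d, Insig2, Scap, Stard4, Nr1h2, Vldlr and Cyp46a1) were called in no within-line contrast by either fit.

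Standard housing set against dark gave no limma call of a member in any line without the block, and 6 members in SST were higher at an unadjusted p under 0.05. The count of 6 has no share of all genes beside it and shows no excess by itself. With the block, Mvd, Cyp51 and Msmo1 were higher in Emx (3 of 31 higher and 0 lower, against 0.781% and 0.176% of genes), 4 were higher and 0 lower in SST (0.225% and 0.12%), and 1, the sterol exporter Abca1, was lower in PV (0.775% of genes lower and 1.68% higher). Gad2 (0.752% and 0.141%) and VIP (0.366% and 0.00705%) had none. In Emx Cyp51 had 1644, 1368 and 2209 in standard housing, against 1256, 1117 and 1347 in the dark, without overlap (0.46, limma adjusted p = 0.0366 with the block and 1 without). It was lost in 5 of 6 fits that left out 1 library, as was Msmo1, while Mvd was lost in 4 of 6 and Abca1 in PV in 3 of 6. In Emx 6.33% of all genes did not overlap between standard housing and dark.

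In SST Cyp51 had 1726 and 1796 in standard housing, against 1093 and 1317 in the dark, and Insig1 had 1443 and 1398, against 993 and 965 in the dark. Fdft1 (0.42) and Msmo1 (0.69) were the other two. With 2 libraries a group, 12 of 31 members (38.7%) did not overlap between the groups, the 4 called genes among them, against 20.2% of all genes. All 4 calls were lost with any 1 library left out. In standard housing summed VIP markers in Emx, summed SST markers in Emx, Gad2 and SST and summed inhibitory markers in SST lay above dark, and summed endothelial and pericyte markers in SST below it, without overlap. The part of these cells was not tested.

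Over the 5 lines, standard housing against dark gave no call without the block (0.67% of genes higher and 0.127% lower). The difference was positive in 23 of 31 members, against 6428 of 14184 genes, with 6 of 7 mevalonate enzymes, 10 of 11 sterol enzymes, 4 of 5 genes of sterol sensing and 3 of 8 of transport and turnover. The median log2 difference was 0.11 for the sterol enzymes, -0.055 for transport and turnover and -0.013 for all genes. With the block Cyp51 (0.31) and Msmo1 (0.26) were higher and Apoe (-0.23) lower (3.98% and 2.42% of genes). Light of 7.5 h set against standard housing, conditions of like depth, gave 1 higher and 2 lower members without the block (3.55% and 2.12% of genes). Lrp8 was higher (0.32, SE 0.072, limma adjusted p = 0.00219, 5 of 5 lines), Mvk was lower (-0.39, SE 0.091, limma adjusted p = 0.00349, 4 of 5 lines) and Tm7sf2 was lower (-0.46, SE 0.14, limma adjusted p = 0.0343, 5 of 5 lines). Lrp8 was lost without replicate 3 (limma adjusted p = 0.0994), Mvk without replicate 1 or 3, and Tm7sf2 without replicate 1 or 2. With the block, 2 were higher and 6 lower (13.6% and 10.6%), which added Srebf2 to the higher and Acat2, Msmo1, Nsdhl and Insig1 to the lower. The light and housing comparisons with dark share the dark libraries.

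Whether light acted unequally in the 5 lines was asked of the line-by-light interaction term over the 3 times. Without the block limma called 0 of 31 members (0.353% of all genes), and 2, Fdft1 and Cyp51, had an unadjusted p under 0.05. The share of all genes at that unadjusted threshold is not given here. With the block 5 were called (16.1% of members, against 4.74% of all genes), namely Fdft1, Msmo1, Insig1, Lrp8 and Cyp51. At 3 h the log2 difference of Fdft1 from dark was 0.38 in Emx and -0.44 in VIP, and that of Msmo1 was 0.45 in Emx and -0.48 in VIP, where neither gene was called. At 7.5 h that of Lrp8 ran from 0.27 in VIP to 0.61 in SST with the block.

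Of the wider pathway over the 5 lines at 7.5 h without the block, 2 of 14 genes of fatty acid synthesis were higher and 2 lower, none of 13 genes of isoprenoid use were called by limma, and 0 of 20 other genes of sterol handling were higher and 2 lower. Within lines, the largest changes called with the block were those of Thrsp, Elovl6 and Fads1. Elovl6, a fatty acid elongase, was higher at 7.5 h with the block in all 5 lines, by 0.22 in SST to 0.65 in VIP. In VIP it averaged 3937 ± 408 in light, against 2519 ± 379.7 in the dark (SD, n = 3 each, log2 difference 0.65, limma adjusted p = 0.00153 with the block and 0.432 without). Thrsp, a regulator of lipid synthesis, fell in PV at 7.5 h, with 66.3 ± 17.7 in light, against 123 ± 28.3 in the dark (SD, n = 3 each, log2 difference -0.89, limma adjusted p = 0.0272 with the block and 0.271 without). Fads1, a fatty acid desaturase, fell in VIP at 3 h, with 2259 ± 419.8 in light, against 3193 ± 226 in the dark (SD, n = 3 each, log2 difference -0.52, limma adjusted p = 0.0278 with the block and 0.526 without).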

How the data were processed

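Ribosome-bound RNA was sequenced from visual cortex, with 3 libraries a group and 3 mice pooled in each. Per the file headers, the deposited table gives gene read signals for each library. Signal is the unit the authors deposited, its scaling is not given in the sources used here, and between 93.34% and 96.67% of each library's low values (at most 20 reads) fell within 0.1 read of a multiple of its smallest step. Depth was estimated from that step. The submitters' processing notes name BWA, Cuffdiff 2.2.1, TopHat2 2.0.13, Cuffnorm, Bowtie2 2.1.0.0 and mm9, with no role or order. Of 14284 rows, 23 named as dates were dropped. The columns of SST dark replicate 2 and SST standard replicate 2 are empty.

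R 4.3.3 was used. Robust, trended limma 3.58.1 (with statmod 1.5.0 for robust estimation) was fitted in each Cre line to log2(signal + 1), for genes at 1 or more in at least 3 libraries, with Benjamini-Hochberg adjustment over all genes. A fold on this scale understates changes of low genes. Lines, means over lines and the interaction used 1 fit of all groups. With the block, differences between lines in this fit were taken at the level of replicate 1 and not averaged over replicates. Genes at 0 in up to 2 libraries whose other libraries had a median of 50 or more were set aside (3 to 23 a line, 76 in the fit of all groups, 0 members). Deviations of libraries with the same number correlated at 0.165 to 0.831, so the numbers were taken to pair samples, and the block is given beside the results. Nothing states whether replicates were independent beyond separate pools, so p-values measure the spread between these libraries. The fits were tested on simulated data. The 31 members were all described. The 3 genes named from other lists had the largest called differences. Members and lists were chosen with earlier results of these data known. Promoter sequences are from RefSeq (GRCm38.p6).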

Additional observations from a re-analysis of the deposited data

Results flagged for a closer look

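The light response of 5 genes differed between the 5 Cre lines in the limma interaction test with the replicate block, at adjusted p = 0.00196 for Fdft1, 0.0142 for Msmo1, 0.0276 for Insig1, 0.0432 for Lrp8 and 0.0461 for Cyp51. Without the block the test called none of them.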

How the results depend on the processing

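No log2 difference of a single member changed sign under another setting. The 1000 comparisons of a result with another setting also include counts of members called, which have no sign. The replicate block moved the count of members called to 3, 8, 9 and 3 in Emx at 1 h, 3 h, 7.5 h and in standard housing, to 2 and 3 in Gad2 at 3 h and 7.5 h, to 2 and 1 in PV at 7.5 h and in standard housing, to 3, 5 and 4 in SST at 3 h, 7.5 h and in standard housing, and to 1 in VIP at 3 h. Over the 5 lines it gave 4 at 3 h, 10 at 7.5 h, 3 in standard housing and 8 for 7.5 h against standard housing, and 5 for the interaction. A fit of all groups together called 1 in Emx at 1 h, 2 in VIP at 3 h and 1 in VIP at 7.5 h. A pseudocount of 0.1, one of 10, and a filter on a mean of at least 10 each called 1 over the lines at 3 h. Without the block, leaving libraries out gave 0 to 1 calls in Emx at 7.5 h, and over the lines 0 to 1 at 1 h, 1 to 5 at 7.5 h, 0 to 1 in standard housing and 1 to 2 for 7.5 h against standard housing, with 0 to 1 for SST against PV and VIP.

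With the block, leaving out 1 library, an alternative chosen after seeing the data, gave 1 to 4, 5 to 9, 5 to 10 and 0 to 3 calls in Emx at 1 h, 3 h, 7.5 h and in standard housing, 0 to 1, 0 to 2, 1 to 3 and 0 to 1 in Gad2, 0 to 2 and 0 to 1 in PV at 7.5 h and in standard housing, 3 to 6 and 0 to 0 in SST at 7.5 h and in standard housing, and 0 to 1 in VIP at 3 h. Of 32 results on single members called without the block, 278 comparisons kept their call and 14 lost it. Most of the 32 are differences between Cre lines. All 14 losses fell on the light results of Lrp8, Cyp51, Mvk and Tm7sf2. The causes were not tested. Tests on counts were not run, because the values were not shown to be whole reads. The lowest mean signals of a member in a Cre line were those of Stard4 (71.3), Fdps (94.1) and Ebp (97.6) in PV, where counting error weighs more.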
